A study of Mus musculus with 12 samples.

Results

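Skin that had received 360 mJ/cm2 of ultraviolet B (UVB) light, the highest dose of the series, was compared with unirradiated skin by sequencing of small RNA. The animals were C57BL/6 mice of 6 to 8 weeks, and an SS-03B phototherapy lamp was the light source. Control skin received 0 mJ/cm2 and was otherwise labelled in the same way, and no group carried an allele or a drug. Each of these groups had 3 libraries, 6 of the 12 in the series, and skin at 90 and 180 mJ/cm2 made up the rest. A mature miRNA arm entered the comparison when it held at least 1 CPM (reads per 1e+06 reads summed over all arms) in at least 3 of the 12 libraries, which left 590 of 1519 arms. Whether replicates stand for separate animals is not in the labels, so the p-values cover only how far these libraries spread, which may be technical. The interval between irradiation and sampling is not given in the sources used here.

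A miRNA is cut from a hairpin precursor whose sides can each leave a mature strand, the 5p and the 3p arm. The strand that is kept guides an Argonaute protein to mRNAs and represses them, and bases 2 to 8 of the strand, the seed, decide most of that pairing, so that arms with the same seed form a family with overlapping targets. In skin, miR-203 and miR-205 are abundant in keratinocytes, the miR-200 family maintains the epithelial state, miR-223 and miR-142 belong to blood cells, and miR-21 rises in wounded and inflamed tissue. UVB damages DNA in keratinocytes, which activates p53, and it provokes the inflammation of sunburn. In whole skin, fewer cells of a type and less RNA per cell cannot be told apart.

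Mature sequences from RefSeq (GRCm38.p6) were matched by name to 501 of the 590 arms. The arms on which the results turn are printed 5′ to 3′ with the seed in capitals. The first set holds some of the arms with large changes in reads or in fold. They are the abundant injury miRNA miR-21a-5p (chromosome 11), the blood-cell arms miR-223-3p (chromosome X) and miR-142a-5p (chromosome 11), the endothelial arm miR-126a-3p (chromosome 2) and the keratinocyte arms miR-203-3p (chromosome 12) and miR-205-5p (chromosome 1).
miR-21a-5p: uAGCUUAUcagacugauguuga
miR-223-3p: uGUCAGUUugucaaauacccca
miR-142a-5p: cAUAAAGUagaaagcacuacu
miR-126a-3p: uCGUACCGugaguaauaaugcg
miR-203-3p: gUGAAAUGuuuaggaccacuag
miR-205-5p: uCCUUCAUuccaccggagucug

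The second set shows families in which members with 1 seed, or with closely related seeds, are compared in the results. The miR-200 family has a pair of seeds and lies in a pair of clusters, miR-200b, miR-200a and miR-429 on chromosome 4 and miR-200c with miR-141 on chromosome 6. The miR-34 arms come from chromosome 4 (miR-34a) and chromosome 9 (miR-34b), and the miR-181 arms shown from chromosome 8. The miR-15/16 seed is shared by arms of different clusters, miR-322-5p on chromosome X, miR-15b-5p on chromosome 3 and miR-195a-5p and miR-497a-5p on chromosome 11, and miR-503-5p, a neighbour of miR-322-5p, has a seed close to it. miR-204-5p (chromosome 19) and miR-211-5p (chromosome 7) share their seed and most of their length.
miR-200a-3p: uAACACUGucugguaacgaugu
miR-141-3p: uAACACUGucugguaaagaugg
miR-200b-3p: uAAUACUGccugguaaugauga
miR-200c-3p: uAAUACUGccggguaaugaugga
miR-429-3p: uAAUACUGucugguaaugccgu
miR-34a-5p: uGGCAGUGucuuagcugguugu
miR-34b-5p: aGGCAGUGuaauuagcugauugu
miR-322-5p: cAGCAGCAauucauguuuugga
miR-15b-5p: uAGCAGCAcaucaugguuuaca
miR-195a-5p: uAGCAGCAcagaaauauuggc
miR-497a-5p: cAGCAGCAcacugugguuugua
miR-503-5p: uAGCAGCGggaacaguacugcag
miR-181c-5p: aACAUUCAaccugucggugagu
miR-181d-5p: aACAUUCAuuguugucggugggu
miR-211-5p: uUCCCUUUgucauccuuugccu
miR-204-5p: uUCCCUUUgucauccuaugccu

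Summed over all arms, the reads came to 8063815, 6044080 and 3764459 in the controls and 4059152, 3843933 and 3164422 after irradiation, so that 1 read equalled 0.124 to 0.316 CPM. Arms with identical values, such as miR-199a-3p and miR-199b-3p, enter these totals under each name. The tissue label was matched by keratinocyte arms in the controls, where miR-203-3p took 6.13% to 7.22% of the reads. The muscle arm miR-1a-3p took 18.7% to 21.4% of control reads and 14.5% to 19.0% of the reads after irradiation. Ligation-based libraries favour some RNA ends over others, so levels were compared for 1 arm across libraries, and ratios of 1 arm to another only by how they changed between groups.

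Irradiated skin differed from control skin in 235 arms (39.8% of those tested), of which 119 (20.2%) rose and 116 (19.7%) fell, by limma on log2(CPM + 1) with Benjamini-Hochberg adjusted p under 0.05. The log2 fold change was 2 or more in size for 22 of the arms that rose and 17 of those that fell, between 1 and 2 for 60 and 67, and between 0.5 and 1 for 37 and 32. Over all arms its median was 0.02, with quartiles of -0.58 and 0.58. The 3 irradiated libraries lay wholly above the controls for 154 arms (26.1%) and wholly below them for 137 (23.2%), and the groups overlapped for 9 of the 235 called arms. Calls were made in 27.9% of the 258 arms with a mean under 10 CPM and in 55.1% of the 69 arms at 1000 CPM or more, where 13 rose and 25 fell. Of the calls 50.6% were higher, and 64.9% when the totals excluded miR-21a-5p and miR-1a-3p, which raised the median fold change by 0.19, and the changes given here are relative to the full totals.

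**Figure D1:**
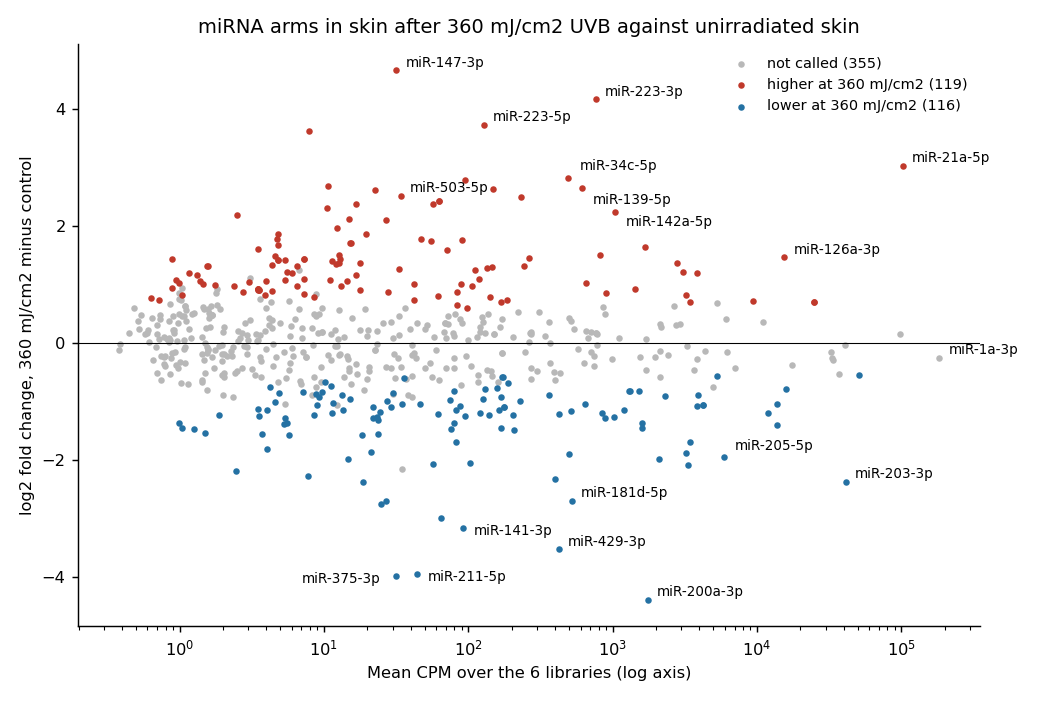
The log2 fold change of each of the 590 arms (360 mJ/cm2 minus control, on log2(CPM + 1)) is plotted against its mean CPM over the 6 libraries on a log axis; red points rose (119), blue points fell (116) and grey points did not pass (355). The named arms range from miR-147-3p at the top to miR-200a-3p at the bottom, and miR-21a-5p combines a large fold with a high level.

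Arms of myeloid cells had the largest rises. miR-223-3p, the leading miRNA of neutrophils, held 85.8, 101 and 56.6 CPM in the control libraries and 1301, 1286 and 1758 CPM after 360 mJ/cm2. Its partner strand miR-223-5p went from 12.3, 18 and 21.5 CPM to 211, 207 and 302 CPM. The irradiated libraries were close together for both strands and far from every control. The fold changes in log2 were 4.16 ± 0.59 (SE, 95% interval 2.91 to 5.42, limma adjusted p = 6.7e-05) for miR-223-3p and 3.73 ± 0.37 (adjusted p = 6.7e-06) for miR-223-5p. miR-147-5p, from a hairpin that macrophages induce, held 0.372, 0.331 and 0.266 CPM in controls, which is under the value of 3 reads in each library (0.372 to 0.797 CPM) or at it, and 19.0, 12.2 and 15.5 CPM after irradiation. The strands of miR-511, a macrophage hairpin inside the mannose receptor gene, did not pass, and miR-511-3p overlapped between groups (22.1, 23.7 and 11.4 against 21.9, 23.4 and 19.0 CPM, adjusted p = 0.60). The scarcer miR-511-5p was at 0.71 ± 0.30 (limma adjusted p = 0.076). By limma it passed as higher without UVB_360 replicate 3 (0.042) and once the totals excluded miR-21a-5p and miR-1a-3p (0.022). It also passed by edgeR on recovered reads (0.047). Of the 6 myeloid arms, 4 rose and none fell, where 20.2% of all arms rose and 19.7% fell. The median log2 fold change of the 6 was 3.68 against 0.02 over all arms. Their summed share of reads was 0.00986% to 0.0148% in controls and 0.158% to 0.220% after irradiation.

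The wider leukocyte list was divided. Both strands of miR-142a, made in all blood cell lineages, rose, and miR-142a-5p went from 298, 441 and 355 CPM to 1569, 1543 and 2049 CPM (log2 fold change 2.24 ± 0.29, limma adjusted p = 2.6e-05). miR-155-5p, of activated lymphocytes and macrophages, went from 67.0, 81.7 and 51.3 CPM to 158, 157 and 154 CPM (1.24 ± 0.25, adjusted p = 0.0010). Its 3 irradiated libraries had nearly the same level, well above the controls. miR-150-5p, of resting lymphocytes, held 132, 130.4 and 53.4 CPM in controls and 54.9, 65.8 and 45.2 CPM after irradiation, so that control replicate 3 lay among the irradiated libraries. It passed as lower (-0.82 ± 0.31, adjusted p = 0.044), but the call was lost when control replicate 1 or 2 or UVB_360 replicate 1 or 3 was left out, and without 5 of the 6 libraries of the other doses (adjusted p up to 0.18). miR-146a-5p, a feedback inhibitor of Toll-like receptor signalling, had 3615, 3892 and 2556 CPM against 3352, 2948 and 3237 CPM (-0.06 ± 0.20, adjusted p = 0.84), and miR-146b-5p 0.63 ± 0.25 (adjusted p = 0.055), which passed as higher without control replicate 3 (0.020) or UVB_180 replicate 2 (0.039). Of 9 leukocyte arms tested, 4 rose and 1 fell, against 20.2% and 19.7% of all arms. The other 4 did not pass, and the list median was 0.63. The fourth that rose, miR-155-3p at 1.61 CPM after irradiation, lost its call, with an adjusted p of up to 0.12, without control replicate 1 or 2 or UVB_360 replicate 1 or 3. Arms of red blood cells, which mark blood in the tissue, were at a list median of 0.18. Of the 7 arms, 0 were called, against 39.8% of all arms. Without control replicate 2, 3 of the 7 rose and the median was 0.51. The 7 hold miR-486a and miR-486b as separate arms, although their 5p strands have identical values, as do their 3p strands. The 3 thus include miR-486a-5p and, with the same values, miR-486b-5p. Of these arms miR-451a held 701, 813 and 429.8 CPM in controls and 454, 602 and 1063 CPM after irradiation.

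miR-21a-5p, printed above, accounted for most of the reads that changed hands. It held 20055, 26876 and 20866 CPM in the control libraries and 177643, 192652 and 178726 CPM after 360 mJ/cm2, a change of 3.03 ± 0.25 on the log2 scale (limma adjusted p = 1.2e-06). The gain was 65.3% of all the CPM gained by the arms that were higher on average, and the 10 arms with the largest gains made up 89.7%. Among the 10 were miR-199a-3p and miR-199b-3p, whose values are identical, so the same values enter these shares under both names. The second largest gain belonged to miR-126a-3p, the endothelial miRNA that supports vascular integrity, from 8381, 8231 and 8087 CPM to 21459, 22079 and 24935 CPM (1.47 ± 0.19, adjusted p = 2.6e-05). No irradiated library of miR-21a-5p or miR-126a-3p came near a control. The losses were spread over more arms, with 21.1% from miR-203-3p and 68.8% from the 10 largest. Since CPM sum to a fixed total, a gain of this size lowers the share left for other arms.

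miR-21a-3p, the strand of the same hairpin that is mostly discarded, was much scarcer and changed less, from 5.21, 3.97 and 10.6 CPM to 13.1, 21.1 and 18.3 CPM (1.35 ± 0.36, limma adjusted p = 0.0076). Other arms of the injury and hyperproliferation list rose with it. miR-132-5p and miR-212-5p, from neighbouring hairpins that the factor CREB induces, rose by 2.11 ± 0.27 and 1.97 ± 0.34, and miR-132-3p went from 27.8, 36.4 and 14.3 CPM to 82.5, 84.3 and 86.9 CPM (1.75 ± 0.29, adjusted p = 0.00026). All 4 arms of miR-132 and miR-212 passed. In contrast miR-31-5p, known from psoriatic and wounded epidermis, held 202, 261 and 305 CPM in controls and 184, 322 and 200.4 CPM at 360 mJ/cm2 (-0.15 ± 0.28, adjusted p = 0.70), while its means at 90 and 180 mJ/cm2 were 458 and 583 CPM. miR-221-3p (0.42 ± 0.24, adjusted p = 0.17) and miR-222-3p (-0.57 ± 0.24, adjusted p = 0.069), a clustered pair that represses the cell cycle inhibitor p27, did not pass, although miR-222-3p passed as lower without control replicate 1 (0.035) and with TMM scaling (0.038). In all, 6 of the 12 arms rose and none fell, against 20.2% and 19.7% of all arms, and the list median was 0.95.

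The miR-34 family, the best known p53-induced miRNAs, moved in both directions. miR-34c-5p went from 157, 165 and 66.1 CPM to 744, 925 and 912 CPM (2.83 ± 0.30, limma adjusted p = 7.1e-06), and miR-34b-5p from 51.8, 51.5 and 23.1 CPM to 204, 286 and 274 CPM (2.64 ± 0.29, adjusted p = 9.2e-06). Both 3p strands of this cluster rose by similar amounts, miR-34b-3p by 2.62 ± 0.36 and miR-34c-3p by 2.68 ± 0.32. miR-34a-5p, which has the same seed as miR-34b-5p but lies on another chromosome, went from 262, 221 and 178 CPM down to 114, 138 and 95.1 CPM (-0.92 ± 0.22, adjusted p = 0.0037). The ratio of miR-34c-5p to miR-34a-5p within a library was thus 0.372 to 0.747 in controls and 6.56 to 9.59 after irradiation, without overlap. miR-449a-5p, which shares the seed and marks ciliated cells, stayed between 0 and 1.33 CPM in all 6 libraries.

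Most other arms that p53 is reported to control did not follow miR-34b and miR-34c. miR-107-3p went from 245, 358 and 309 CPM to 144, 182.1 and 129 CPM (-0.99 ± 0.25, limma adjusted p = 0.0058), while its near-identical relative miR-103-3p held 2227, 2921 and 2641 CPM against 3209, 3308 and 3225 CPM (0.33 ± 0.19, adjusted p = 0.18). The ratio of miR-107-3p to miR-103-3p fell from 0.117 on average to 0.0467, with no overlap, and reads can be shared between arms this alike. The pair was chosen with its values known. miR-192-5p, from a hairpin of gut and kidney, held 1895 CPM in control replicate 3 against 395 and 408 CPM in the other controls, and 602, 613 and 768 CPM after irradiation. Its log2 fold change was -0.04 ± 0.42 (adjusted p = 0.95) with all libraries and 0.71 without control replicate 3 (adjusted p = 0.0093). Of the 11 p53 arms, 5 rose, 2 fell and the median was 0.34, where 20.2% of all arms rose and 19.7% fell. Without control replicate 3, 7 of the 11 rose and the median was 0.73. The fifth that rose was miR-194-2-3p, at 0.868, 1.49 and 0.266 CPM in controls and 1.97, 3.38 and 2.53 CPM after irradiation (0.99 ± 0.31, limma adjusted p = 0.018, and 0.070 or 0.069 without control replicate 3 or UVB_360 replicate 2).

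**Figure D2:**
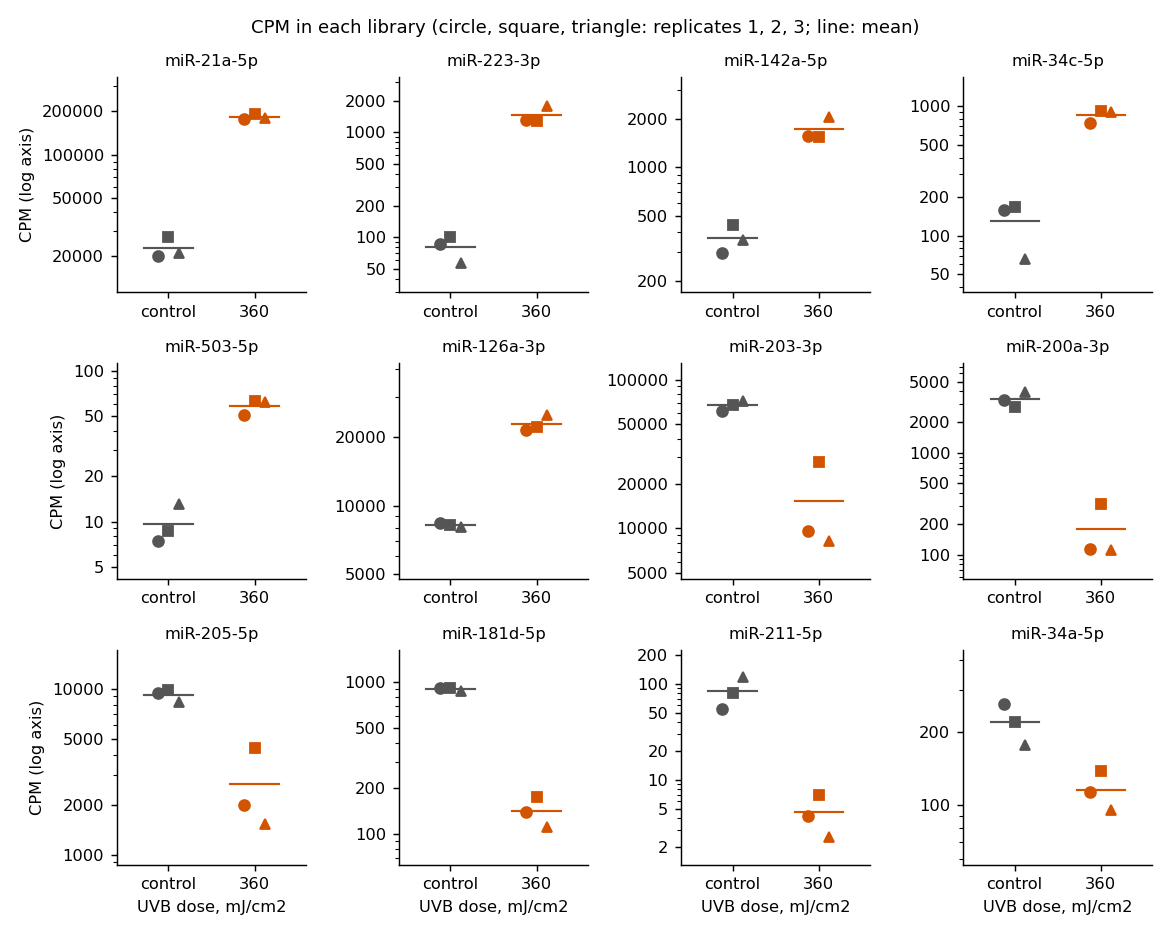
CPM (log axis) of 12 arms in the 3 control libraries (grey) and the 3 libraries of 360 mJ/cm2 (orange), where circle, square and triangle are replicates 1, 2 and 3 and the line is the mean. The groups do not overlap in any panel. The square of the irradiated group lies nearest the controls for miR-203-3p, miR-200a-3p, miR-205-5p, miR-181d-5p, miR-211-5p and miR-34a-5p, and by a small margin for miR-223-3p and miR-142a-5p.

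The cluster of miR-322 and miR-503 on chromosome X, the rodent counterpart of the human miR-424 cluster and linked to exit from the cell cycle, rose almost as a unit. miR-503-5p went from 7.44, 8.60 and 13 CPM to 51.0, 63.2 and 61.9 CPM (2.51 ± 0.28, limma adjusted p = 1.1e-05), miR-322-5p from 34.8, 39.5 and 31.1 CPM to 96.3, 114 and 110.3 CPM (1.58 ± 0.22, adjusted p = 5.8e-05), and miR-542-3p from 52.1, 36.6 and 33.7 CPM to 117, 127 and 178 CPM (1.76 ± 0.25, adjusted p = 6.7e-05). miR-450b-5p rose by 2.11 ± 0.30. Of 11 arms, 9 rose and none fell, against 20.2% and 19.7% of all arms, with a median of 1.33. miR-450a-5p (0.34 ± 0.23) and miR-351-3p (0.02 ± 0.32) did not pass. Among the 9, the call of miR-351-5p was lost when control replicate 1 or UVB_360 replicate 2 was left out (adjusted p up to 0.074), and that of miR-542-5p, at 2.33 CPM on average after irradiation, when any control or UVB_360 replicate 3 was (up to 0.14).

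Arms that carry the miR-15/16 seed AGCAGCA were split by cluster. Besides miR-322-5p, miR-15b-5p rose, from 126, 153 and 109 CPM to 202.998, 211 and 213 CPM (0.70 ± 0.19, limma adjusted p = 0.0087). miR-195a-5p, from a cluster on chromosome 11, fell from 1167, 906 and 562 CPM to 444, 395 and 393 CPM (-1.03 ± 0.24, adjusted p = 0.0028), and its neighbour miR-497a-5p fell from 196, 173 and 136 CPM to 79.6, 70.0 and 67.6 CPM (-1.19 ± 0.21, adjusted p = 0.00036). Each of the 4 separated the groups in its own direction. miR-16-5p, made from a pair of loci, held 2513, 1855 and 863 CPM in controls and 1266, 1327 and 1462 CPM after irradiation, within the range of the controls (-0.24 ± 0.29, adjusted p = 0.56). Without control replicate 3 its change was -0.68 and passed as lower (limma adjusted p = 0.011). Summed over the 6 arms with this seed, the mean was 3025 CPM in controls and 2192 CPM at 360 mJ/cm2. The ratio of miR-503-5p to miR-497a-5p was 0.0380 to 0.0955 in controls and 0.641 to 0.916 after irradiation.

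Several single hairpins outside these families rose. Both strands of miR-335, which lies in the imprinted gene Mest, passed, miR-335-5p from 18.8, 19.0 and 14.9 CPM to 119, 97.6 and 72.4 CPM (2.37 ± 0.27, limma adjusted p = 1.3e-05) and miR-335-3p by 2.79 ± 0.41. miR-139-5p, inside the phosphodiesterase gene Pde2a, went from 204, 185 and 114 CPM to 890.3, 816 and 1494 CPM (2.65 ± 0.44, adjusted p = 0.00026). Its means at 90 and 180 mJ/cm2 were 309.7 and 305 CPM. miR-129-5p, best known from neurons, went from 3.47, 8.77 and 3.19 CPM to 29.1, 29.9 and 26.5 CPM (2.38 ± 0.35, adjusted p = 8.2e-05). miR-140-3p, abundant in cartilage and connective tissue, rose from 2451, 2769 and 1817 CPM to 4979.9, 5134 and 5746 CPM (1.19 ± 0.21, adjusted p = 0.00047), and miR-379-5p, of the imprinted Dlk1-Dio3 locus, from 1465, 1764 and 1466 CPM to 4360.3, 3996 and 3702 CPM (1.36 ± 0.21, adjusted p = 0.00014). miR-467a-5p and miR-467b-5p, whose values are identical because the table gives both the same reads, rose by 2.42 ± 0.30. Within the Dlk1-Dio3 locus as a whole, 15 of 66 arms rose and 6 fell, with a median of 0.25, where 20.2% of all arms rose and 19.7% fell. Without control replicate 1, 9 rose and 2 fell, without control replicate 3, 13 rose and 11 fell, and these became 21 and 1 once the totals excluded miR-21a-5p and miR-1a-3p.

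Most epithelial arms fell. miR-203-3p, which limits the stemness of keratinocytes as they differentiate, held 61268, 67706 and 72175 CPM in the control libraries and 9549.5, 28063 and 8216 CPM after 360 mJ/cm2 (-2.36 ± 0.48, limma adjusted p = 0.0012). miR-205-5p, of basal keratinocytes, went from 9377, 9783 and 8314 CPM to 1999.7, 4411 and 1525 CPM (-1.94 ± 0.38, adjusted p = 0.00099). Both groups were well apart, and replicate 2 of the irradiated group kept more of each arm than the other replicates. The lists of miR-200 arms, of miR-203 and miR-205 arms and of the cluster of miR-183, miR-96 and miR-182 held 20 tested arms together. Of these 16 fell and none rose, against 19.7% and 20.2% of all arms, with a median of -1.78. The summed share of reads of the 20 arms was 9.06%, 9.83% and 10.5% in controls and 1.52%, 4.08% and 1.41% after irradiation.

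UVB_360 replicate 2 was the irradiated library nearest the controls for 15 of the 16 epithelial arms that fell, for 65 of the 100 other arms that fell and for 44 of the 119 that rose. Its mean log2(CPM + 1) of the 20 epithelial arms was -1.20 relative to the controls, against -2.09 and -2.02 in replicates 1 and 3. The myeloid arms did not set this library apart, with levels of 2.78, 2.79 and 2.99 in replicates 1, 2 and 3. Among the controls, replicate 3 was nearest to the irradiated libraries for 67 of the 116 arms that fell. Without UVB_360 replicate 2, 15 of the 20 epithelial arms fell, with a median of -2.09, and the changes of miR-203-3p and miR-205-5p were -2.92 and -2.39 on the log2 scale. Without control replicate 3, miR-30a-5p was at -1.21 and miR-193b-3p at -3.51. Without control replicate 2, 14 of the 20 epithelial arms passed as lower.

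**Figure D3:**
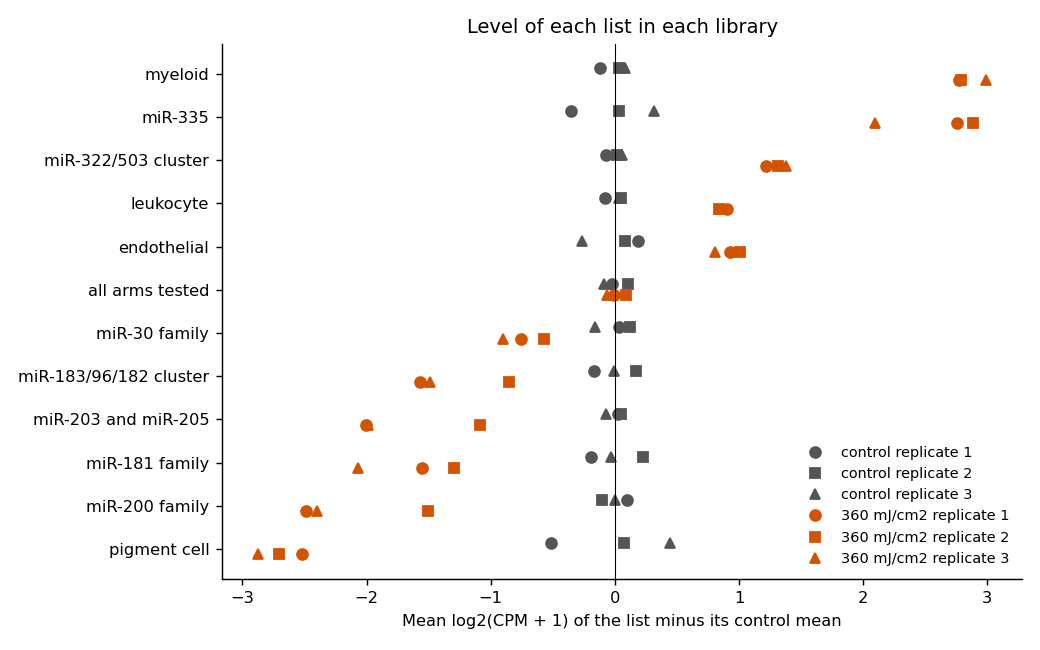
Mean log2(CPM + 1) of each list's arms in each library, minus the mean of the controls, with controls in grey, 360 mJ/cm2 in orange and 1 symbol per replicate. The square of the irradiated group (replicate 2) lies nearer 0 than the circle and triangle for the lists of miR-200, of miR-203 with miR-205 and of miR-183, miR-96 and miR-182. The same holds for the miR-181 and miR-30 lists. For the myeloid list the square lies among the other symbols, and the mean of all arms stays near 0 in all 6 libraries.

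Within the miR-200 family the arms fell by very different amounts. miR-200a-3p went from 3291, 2786 and 3946 CPM to 112, 316 and 111 CPM (-4.38 ± 0.45, limma adjusted p = 7.1e-06), and miR-141-3p, with the same seed, from 224, 122 and 154 CPM to 15.5, 22.4 and 14.9 CPM (-3.15 ± 0.39, adjusted p = 2.3e-05). Of the arms with the other seed, miR-429-3p fell by 3.52 ± 0.45, from 799, 771 and 742 CPM to 44.1, 135 and 49.0 CPM. miR-200b-3p fell by 2.08 ± 0.46, from 3756, 4533 and 7719 CPM to 839, 2214 and 927 CPM, and miR-200c-3p by 1.36 ± 0.34 (adjusted p = 0.0049). In the cluster of miR-200a, miR-200b and miR-429 the arm with the first seed, miR-200a-3p, fell most. In the cluster of miR-141 and miR-200c it was miR-141-3p, with the same seed. For either seed, the arms of the first cluster fell more than the arm of the second. The arms were not tested against each other.

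Ratios within single libraries, where depth and composition are shared, restate the differences between arms of the same cluster. The ratio of miR-200a-3p to miR-200b-3p was 0.511 to 0.876 in controls and 0.120 to 0.143 after irradiation, and that of miR-141-3p to miR-200c-3p was 0.0501 to 0.0893 and 0.0169 to 0.0241. UVB_360 replicate 2, with more epithelial reads, had ratios of 0.143 and 0.0169, beside the other irradiated libraries. The other strand of the hairpin changed less, and the ratio of miR-200a-3p to miR-200a-5p was 12.5, 10.6 and 10.3 in controls and 1.49, 2.09 and 1.06 after irradiation. miR-200a-5p itself fell by 1.48 ± 0.37 (limma adjusted p = 0.0057). For miR-205, the ratio of the 5p to the 3p strand was 92.3 to 141 in controls and 33.3 to 54.0 after irradiation, and miR-205-3p overlapped between groups (66.3, 81.2 and 90.1 against 52.7, 81.7 and 45.8 CPM, adjusted p = 0.28). These pairs were chosen after their values were seen, and the ratios were not tested.

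In the cluster of miR-183, miR-96 and miR-182, shared by sensory cells and epithelia, miR-96-5p fell by 2.32 ± 0.29 (676, 675 and 639.9 to 93.9, 166 and 149 CPM, limma adjusted p = 2.6e-05), miR-183-5p by 1.98 ± 0.33 and miR-182-5p by 1.69 ± 0.35. The scarce strands miR-182-3p (-0.13 ± 0.27) and miR-96-3p (-0.43 ± 0.32) did not pass, at under 3 CPM in each of the 6 libraries. Of the 6 arms 4 fell, against 19.7% of all arms. The 4 included miR-183-3p, whose call was lost without control replicate 2, UVB_360 replicate 1 or UVB_360 replicate 3 (adjusted p up to 0.12).

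Scarcer arms of pigment cells and of Merkel cells fell to under 10 CPM. miR-211-5p, inside the melanocyte gene Trpm1, went from 53.9, 79.9 and 117 CPM to 4.19, 7.02 and 2.53 CPM (-3.93 ± 0.55, limma adjusted p = 6.4e-05). miR-204-5p, its relative with the same seed from another gene, went from 43.2, 60.9 and 39.0 CPM to 8.38, 4.16 and 7.27 CPM (-2.70 ± 0.29, adjusted p = 8.1e-06). miR-375-3p, of Merkel and other neuroendocrine cells, went from 40.3, 43.7 and 96.4 CPM to 4.19, 3.64 and 0.948 CPM (-3.97 ± 0.59, adjusted p = 9.2e-05), where 0.948 CPM is the value of 3 reads in that library. For these 3 arms every irradiated library lay far below the lowest control. miR-124-3p, of neurons, ranged from 3.84 to 139 CPM among the controls and did not pass (-2.14 ± 0.97, adjusted p = 0.092), but without control replicate 1, the lowest control, it passed as lower at -3.48 (adjusted p = 0.0035), and it also passed by edgeR and by DESeq2 on the reads recovered from the CPM (adjusted p = 0.025 in both). Of the 9 neural and Merkel cell arms tested, miR-375-3p alone fell and miR-129-5p alone rose, with a median of -0.35. Over all arms tested, 20.2% rose and 19.7% fell. Without control replicate 1, 3 of the 9 fell, and without control replicate 2, 2 rose and the list median was 0.03. UVB_360 replicate 2 was nearest the controls for miR-211-5p, but not for miR-204-5p or miR-375-3p.

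All 4 arms with the miR-181 seed ACAUUCA, a family that tunes signalling in lymphocytes and vessels, fell. miR-181d-5p went from 919, 921 and 876 CPM to 139, 175 and 112 CPM (-2.69 ± 0.34, limma adjusted p = 2.6e-05) and miR-181c-5p, from the same cluster on chromosome 8, from 50.1, 38.6 and 44.1 CPM to 5.17, 7.02 and 5.06 CPM (-2.75 ± 0.26, adjusted p = 5.6e-06). The arms made from both other clusters fell less, miR-181b-5p by 1.88 ± 0.28 and miR-181a-5p, from 1395, 1907 and 1671 CPM to 802, 849 and 614 CPM, by 1.14 ± 0.22 (adjusted p = 0.00081). The ratio of miR-181c-5p to miR-181a-5p was 0.0202 to 0.0359 in controls and 0.00645 to 0.00827 after irradiation. With the passenger strands, 7 of 8 arms fell, against 19.7% of all arms, and the median of the 8 was -1.51. Of these, miR-181a-1-3p lost its call when control replicate 2 or UVB_360 replicate 3 was left out (adjusted p up to 0.091), and miR-181b-1-3p when replicate 2 or 3 of either group was (up to 0.16).

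In the miR-30 family, which restrains the transcription factor Snai1 in epithelial cells, 7 of 11 arms fell. Over all arms 19.7% fell, and the median of the family was -0.82. miR-30a-5p, its most abundant member, went from 22539.6, 18626 and 14437 CPM to 8406, 9494 and 8776 CPM (-1.04 ± 0.21, limma adjusted p = 0.00099), and miR-30e-5p fell by 0.82 ± 0.17. Without UVB_360 replicate 3, 5 of the 11 arms passed and the median was -0.65. miR-30d-5p, which had 5194 to 6667 CPM after irradiation, did not pass at -0.43 ± 0.21 (adjusted p = 0.12). miR-10a-5p, from within the Hoxb cluster, went from 19028, 19835 and 20795 CPM to 6795, 8974 and 7071 CPM (-1.40 ± 0.24, adjusted p = 0.00030), and its other strand miR-10a-3p fell by 1.36 ± 0.28. miR-193b-3p, known from fat and muscle, fell from 168, 135 and 51.0 CPM to 9.61, 16.6 and 11.7 CPM (-2.99 ± 0.39, adjusted p = 2.7e-05), and miR-365-3p by 1.69 ± 0.25. The 3p strand of miR-365 is listed once for the hairpins miR-365-1 and miR-365-2, so its reads cannot be assigned to either. Their 5p strands went in opposite directions, miR-365-1-5p at -1.38 (limma adjusted p = 0.0049) and miR-365-2-5p at 0.87 (0.047). The call of miR-365-2-5p was lost in many alternatives, as without control replicate 2 (0.20). Control replicate 3 was the lowest control for both miR-30a-5p and miR-193b-3p, and still above every irradiated library.

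The let-7 family, regulators of developmental timing, changed unevenly. let-7b-5p went from 4626, 5481 and 5145 CPM to 1492, 1586 and 1128 CPM (-1.87 ± 0.20, limma adjusted p = 7.1e-06) and let-7c-5p from 13237, 16300.1 and 20643 CPM to 7926, 8179 and 5786 CPM (-1.19 ± 0.21, adjusted p = 0.00047). let-7i-5p, with the same seed, held 41028, 41165 and 40679 CPM in controls and 39916, 41865 and 38570.4 CPM after irradiation (-0.03 ± 0.17, 95% interval -0.40 to 0.34). Of the 9 members 4 fell and none rose, against 19.7% and 20.2% of all arms. The number that fell was 7 with TMM scaling over all arms of the table and 3 once the totals excluded miR-21a-5p and miR-1a-3p. The call of let-7a-5p (adjusted p = 0.046) was lost without any library but control replicate 1 and UVB_90 replicate 3 (up to 0.18). Members of this family differ by few bases, so the counting may divide reads between them in a way the table does not show.

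**Figure D4:**
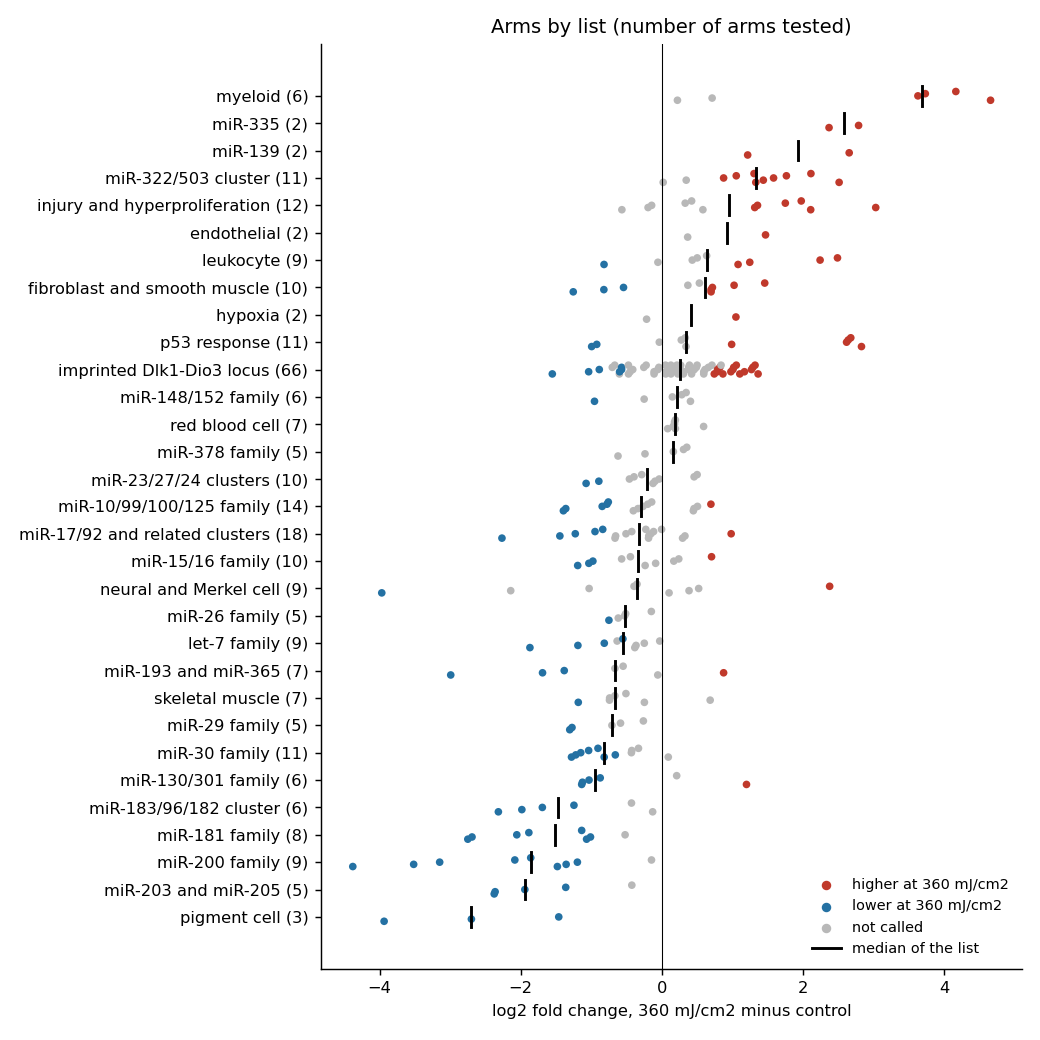
The log2 fold change of every tested arm in 31 lists, with the number of arms in parentheses, arms that rose in red, arms that fell in blue, arms that did not pass in grey and the median of each list as a black bar. Myeloid arms lie furthest to the right and pigment cell, miR-203 and miR-205 and miR-200 arms furthest to the left by their medians, while the red blood cell and miR-378 lists hold no called arm.

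The lists for muscle and connective tissue gave mixed values. miR-1a-3p, the most abundant arm, held 195789, 214107 and 187047 CPM in controls and 169148, 145352 and 190460.1 CPM after irradiation (-0.25 ± 0.26, limma adjusted p = 0.49). Of 7 muscle arms only miR-133b-3p passed, as lower (limma adjusted p = 0.024), where 39.8% of all arms were called. Without control replicate 3, 3 of the 7 passed. For miR-133b-3p control replicate 3 (488 CPM) lay among the irradiated libraries (438 to 504 CPM). Its call was lost without replicate 1 or 2 of the controls or replicate 1 or 3 at 360 mJ/cm2 (adjusted p up to 0.12). Among 10 fibroblast and smooth muscle arms, 5 rose and 3 fell, where 20.2% of all arms rose and 19.7% fell. The 5 include both miR-199a-3p and miR-199b-3p, which have identical values. Without control replicate 1, 3 rose and 1 fell, and 2 rose without UVB_360 replicate 1 or 2. Without both control replicate 3 and UVB_360 replicate 2, 1 rose and 3 fell. miR-214-5p went from 129.7, 102 and 201 CPM to 435, 315 and 408 CPM (1.46 ± 0.28, adjusted p = 0.00082), and miR-145a-5p, of smooth muscle, from 1455, 1705 and 1169 CPM to 613, 781 and 444 CPM (-1.26 ± 0.22, adjusted p = 0.00035). Once the totals excluded miR-21a-5p and miR-1a-3p, 7 arms of this list rose and 1 fell. The miR-378 family, whose member miR-378a lies in the metabolic regulator gene Ppargc1b, had 0 of 5 arms called, against 39.8% of all arms. Its arm miR-378a-5p (-0.62 ± 0.26, adjusted p = 0.067) passed as lower without control replicate 3 (-0.93, adjusted p = 0.0024), with TMM scaling (0.041), with 10 CPM required in 3 libraries (0.049), and by edgeR (0.028) and DESeq2 (0.014) on recovered reads. The strands of miR-210, a hairpin induced by hypoxia, differed. miR-210-3p held 107, 103 and 97.0 CPM against 64.3, 123 and 85.0 CPM (-0.22 ± 0.29, adjusted p = 0.59), and the scarce miR-210-5p rose from 2.11, 1.65 and 1.06 CPM to 3.70, 3.38 and 6.32 CPM (1.05 ± 0.30, limma adjusted p = 0.012), a call lost without UVB_360 replicate 3 (0.063).

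Both strands were tested for 166 hairpins. Both rose in 28 hairpins, both fell in 19, 1 strand passed in 49 and neither passed in 68. Pearson's r between the strands' log2 fold changes was 0.74 over the 166 hairpins and 0.80 over the 81 with both strands at 10 CPM or more on average. This r is a description across hairpins of the same libraries. Called strands went in opposite directions in 2 hairpins, miR-136 and miR-199b. In miR-136, the 5p strand held 161, 88.4 and 70.1 CPM in controls and 189.7, 143 and 193 CPM after irradiation, and the 3p strand 643, 492 and 309 CPM against 238, 262 and 246 CPM, so that the ratio of 3p to 5p went from 4.65 to 1.45 on average without overlap. The miR-136-5p call (limma adjusted p = 0.041) was lost without control replicate 2 or 3, UVB_360 replicate 1 or 3, UVB_90 replicate 1 or UVB_180 replicate 3 (up to 0.15). Its groups overlapped, with 161 CPM in control replicate 1 against 143 CPM in UVB_360 replicate 2. On recovered reads it did not pass by edgeR (0.084) or DESeq2 (0.088). Nor did it pass by limma with TMM scaling (0.052), without the filter (0.072) or with the 6 libraries alone (0.069). The miR-136-3p call was lost once the totals excluded miR-21a-5p and miR-1a-3p (limma adjusted p = 0.055). miR-199b-3p has the same sequence as miR-199a-3p and identical values, so the 3p reads cannot be assigned to a hairpin, and miR-199b-5p (adjusted p = 0.028) overlapped between the groups and lost its call without replicate 1 or 2 of the controls or replicate 1 or 3 at 360 mJ/cm2 (up to 0.13).

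Strand ratios also changed in other hairpins, picked with their values known, without overlap for miR-145a, miR-25 and miR-126a. miR-145a-3p held 231, 253 and 264 CPM in controls and 435, 378 and 283 CPM after irradiation (0.53 ± 0.22, limma adjusted p = 0.070, and 0.032 without UVB_360 replicate 3), against the fall of miR-145a-5p, and the ratio of 3p to 5p was 0.148 to 0.225 in controls and 0.484 to 0.710 after irradiation. miR-25-5p fell by 2.27 ± 0.38 (12.5, 14.6 and 13.5 to 2.46, 2.08 and 1.58 CPM, adjusted p = 0.00026), while miR-25-3p held 1706, 2114 and 1879 CPM against 2230.0, 2611 and 2297 CPM (0.33 ± 0.21, adjusted p = 0.24). The rise of miR-126a-3p was not matched by miR-126a-5p, which held 392.5, 348 and 217 CPM against 432, 468 and 313 CPM (0.36 ± 0.24, adjusted p = 0.25). In miR-872 the 3p strand fell (-1.57 ± 0.29, adjusted p = 0.00056) and the 5p strand did not pass (0.17 ± 0.23, adjusted p = 0.60).

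**Figure D5:**
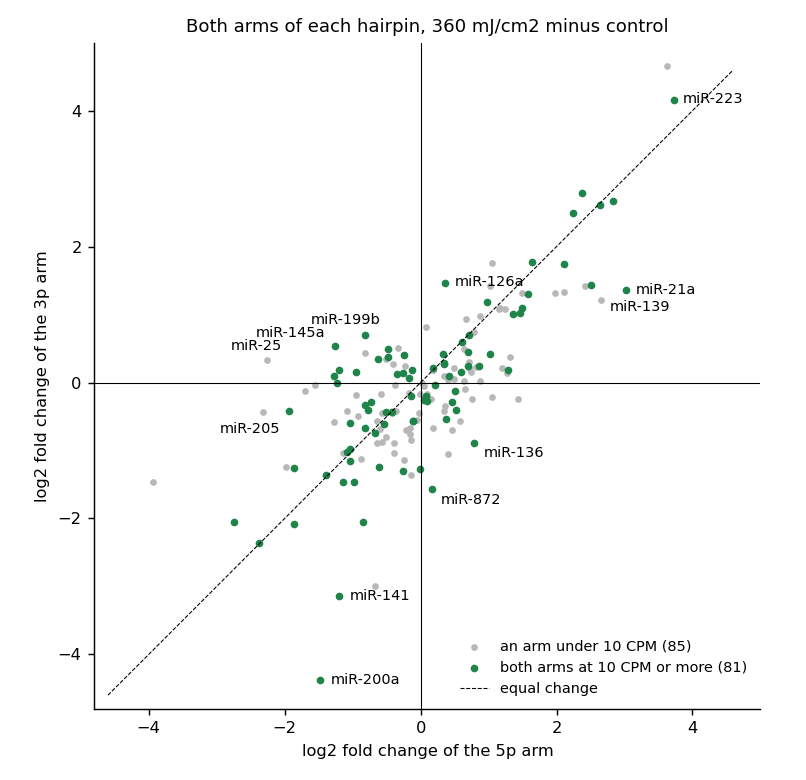
Log2 fold change of the 3p strand against that of the 5p strand for 166 hairpins, in green where both strands averaged 10 CPM or more and in grey otherwise, with a dashed line of equal change. The values of the strands were correlated (r = 0.80 for the green points), and miR-200a, miR-141, miR-145a, miR-25, miR-126a, miR-136 and miR-872 lie away from it.

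The values at lower doses stand beside these for a few arms, all set against the same controls. Mean CPM of miR-34b-5p was 42.1 in controls and 227, 242 and 255 at 90, 180 and 360 mJ/cm2. miR-223-3p averaged 81.3, 301.1, 211 and 1448 CPM over the same groups, miR-147-3p 1.73, 6.84, 6.91 and 61.8 CPM, and miR-503-5p 9.69, 24, 31.3 and 58.7 CPM. miR-203-3p averaged 67049.6, 52368, 60141 and 15276 CPM and miR-205-5p 9158, 7228, 7851 and 2645 CPM, whereas miR-200a-3p averaged 3341, 839.8, 773 and 179.9 CPM. In these means every arm named in this paragraph lay furthest from the controls at 360 mJ/cm2. For miR-34b-5p the mean at 90 mJ/cm2 was near that at 360 mJ/cm2. Differences between doses were not tested here.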

How the data were processed

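Small RNA of mouse skin was sequenced on an Illumina NextSeq from NEBNext libraries, per the labels' protocols. The authors deposited CPM of 1519 mature miRNA arms, and each library sums to 1e+06. The submitters' processing notes name the build mm9, while names for the aligner, the counter and the miRBase release were not given in the sources used here. Of the tested arms, 24 share their values with another arm, in 11 sets. All values (100%) were whole multiples of 1 read within 0.01 reads, which gave the read totals. A count of 0 allows up to 3 reads, 0.372 to 0.948 CPM in the 6 libraries, and covers counting error only. Replicates differed far beyond sampling noise (chi-square over degrees of freedom 173 to 776).

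limma 3.58.1 in R 4.3.3 (limma-trend) was fitted on log2(CPM + 1), pseudocount 1, to all 12 libraries with a mean per dose and no covariate, on arms of at least 1 CPM in at least 3 libraries. This scale understates changes of scarce arms. Half-widths of the 95% intervals had a median of 0.63 log2 units. P-values are two-sided, adjusted by Benjamini-Hochberg over 590 arms, with a threshold of 0.05. An exact permutation test of 3 against 3 libraries cannot go under 0.1 and was not used. On the recovered reads, edgeR 4.0.16 (quasi-likelihood) called 254 arms and DESeq2 1.42.0 called 250, and 280 had an unadjusted p under 0.05 in limma. The fit was tested on simulated data. Replicate numbers do not pair the libraries: deviations of same-numbered libraries correlated at -0.07, 0.03 and -0.03.

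Lists, members and named arms were chosen with earlier results of these data known, so no list is independent evidence. The rule named 132 arms: called arms with the 15 largest folds in each direction at a mean of at least 10 CPM, the 10 largest gains, losses and levels in CPM, up to 4 arms per list by p, hairpins with opposite calls, and arms at 0 in 1 group and at 10 CPM or more throughout the other. Other arms were named after their values were seen. Every ratio of 1 arm to another was likewise taken for a pair picked with these data known. A lack of overlap in such a ratio was thus to be found by the choice of pair, and no ratio was tested.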

Additional observations from a re-analysis of the deposited data

How the results depend on the processing

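The count of 235 called arms stayed within 1.5 times under every alternative run, from 184 without control replicate 1 to 252 without control replicate 3 when 1 library was left out, with 84 to 119 higher and 91 to 135 lower. Of the counts over all arms, that of higher arms, 119, moved further, to 76 when arms needed 10 CPM in 3 libraries, where 353 arms were tested. The fit with a replicate block gave 229 calls, 226 of them among the 235. Pseudocounts of 0.25 and 5 gave 234 and 235, no filter 218 of 1519, TMM scaling 244, TMM over all table arms 246 (41.1% higher, chosen after seeing the data), the 6 libraries alone 34.4% of arms, and leaving out control replicate 3 with UVB_360 replicate 2, also chosen after seeing the data, 233. Of the named arms that were called, 90 kept their call in every alternative and 33 lost it in at least 1 run without a library. Counts within several lists moved by over 1.5 times, as for the fibroblast and smooth muscle list, where 1 to 7 of 10 arms were higher. No called arm changed sign. Among arms not called, miR-103-3p, miR-221-3p, miR-25-3p, miR-450a-5p, miR-145a-3p and miR-146b-5p passed as higher once the totals excluded miR-21a-5p and miR-1a-3p (limma adjusted p 0.010 to 0.049), and miR-30d-5p, miR-222-3p and miR-378a-5p as lower with TMM over all table arms (0.012 to 0.024). miR-192-5p, not called, turned from -0.04 to 0.71 without control replicate 3 and to 0.76 without that library and UVB_360 replicate 2, and its values without 1 library ran from -0.42 to 0.71. Libraries of 3164422 to 8063815 reads leave arms of a few CPM at the counting limit.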

Other observations

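miR-129b-5p was the only called arm listed at 0 in all 3 controls, where 3 reads are worth 0.372 to 0.797 CPM, and it held 1.72, 1.04 and 2.53 CPM in the libraries of 360 mJ/cm2 (limma adjusted p = 0.0021). The related miR-129-5p rose in the same libraries. The arms with the seed AUUGCAC were also divided: miR-92a-3p, of the proliferation-linked miR-17/92 cluster, went from 2230.2, 2624 and 2098 CPM to 689, 1162 and 758 CPM (-1.45 ± 0.31, limma adjusted p = 0.0018), miR-92b-3p fell by 0.91 ± 0.26, miR-25-3p did not pass, and miR-363-3p rose from 3.60, 4.30 and 4.25 CPM to 9.12, 7.28 and 10.7 CPM (adjusted p = 0.023, up to 0.084 without control replicate 1 or UVB_360 replicate 1 or 3). Seed families were formed only from the 501 arms with a sequence matched by name, so some tested arms are missing from them. Of 14 families with at least 3 such arms, 3 held calls in both directions, 8 only lower, 2 only higher and 1 none. Over all arms tested, 20.2% rose and 19.7% fell. Some families rested on 1 call, as with the seeds UAUACAA (1 of 5 arms lower), AGCACCA (1 of 3 lower), ACCCGUA and CCCUGAG (1 of 3 higher in each). Once the totals excluded miR-21a-5p and miR-1a-3p, 87 of all arms fell in place of 116, and the families were not counted again. miR-676-3p, a little-studied arm outside the lists, went from 172, 194 and 134 CPM to 37.4, 49.7 and 32.2 CPM (-2.05 ± 0.25, adjusted p = 2.3e-05).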
